A study of Homo sapiens with 4 samples.

Results

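The levels of 10 transcription factors of the squamous lineage were followed in FaDu cells: TP63, SOX2, KLF4, KLF5, GRHL2, GRHL3, OVOL1, OVOL2, TFAP2A and EHF. They were chosen by name, as the rows of the expression table that carry these symbols and lie on a chromosome, and all 10 were found among 62077 rows. FaDu is an established human cell line from a squamous carcinoma of the hypopharynx. RNA sequencing was done in 4 libraries, 1 per group, to ask which genes respond to low oxygen and which of these responses depend on TET1, the dioxygenase that converts 5-methylcytosine to 5-hydroxymethylcytosine. In the group names used here, N is normoxia and H is hypoxia (1% O2 for 19 h). The letters scr stand for the scrambled control and si for the TET1 knockdown that the labels call TET1-si. All 4 groups were kept at 5% CO2, and the oxygen level and time of the normoxia groups are not given in the sources used here.

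The groups were therefore N-scr and H-scr, with the scrambled control, and N-si and H-si, with the knockdown. By the methods of the study, the knockdown came from 1 lentiviral hairpin against TET1, the controls received a scrambled hairpin in the same way, and the infected cells were used within days of infection. Elsewhere the study calls these cells clones. Other differences between the scrambled and the knockdown population cannot be told apart from TET1-si. With 1 library per group, the differences below could not be checked against replicates, and p-values are not given. Each difference is one between 2 libraries, and the 95% counting intervals beside it cover counting error only. In RNA from whole cultures, fewer cells that express a gene cannot be told apart from less of its RNA per cell.

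These factors build and maintain stratified epithelium. TP63 is the master regulator of basal keratinocytes, SOX2 acts beside it in oesophageal and squamous cancer cells, and TFAP2A is an early partner in ectoderm. The Krüppel-like factors KLF5 and KLF4 act in proliferating and in differentiating layers, respectively. The grainyhead-like factors GRHL2 and GRHL3, the zinc finger repressors OVOL1 and OVOL2 and the ETS factor EHF keep cells epithelial, and several of them repress genes of the epithelial-mesenchymal transition.

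TET1 acts on methylated CpG dinucleotides, so the 250 bases before the annotated start of the main transcript were read for 9 of the factors from the hg19 genome and the CpG in them were counted. SOX2 is shown because its level differed most between TET1-si and scrambled cells. KLF4 is shown because it was the factor with the highest ratio of hypoxia to normoxia in scrambled cells. The CpG are in capitals, and each sequence runs 5′ to 3′ on the gene's own strand. The windows are chr3:181429463-181429712 on the plus strand for SOX2 and chr9:110252051-110252300 on the minus strand for KLF4.
SOX2: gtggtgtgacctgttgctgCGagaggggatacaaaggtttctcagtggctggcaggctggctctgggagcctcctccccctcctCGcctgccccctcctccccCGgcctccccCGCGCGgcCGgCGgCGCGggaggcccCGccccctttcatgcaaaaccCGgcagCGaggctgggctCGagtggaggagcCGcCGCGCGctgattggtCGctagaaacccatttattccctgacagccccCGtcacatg
KLF4: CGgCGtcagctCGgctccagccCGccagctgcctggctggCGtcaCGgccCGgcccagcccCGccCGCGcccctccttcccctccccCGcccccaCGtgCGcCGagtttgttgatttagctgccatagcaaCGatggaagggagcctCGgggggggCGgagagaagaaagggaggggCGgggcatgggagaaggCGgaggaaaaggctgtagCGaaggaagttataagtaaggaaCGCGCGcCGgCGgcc
The SOX2 window held 20 CpG and the KLF4 window 25. Across the windows of 18959 protein-coding genes the median was 18 CpG, with quartiles at 7 and 27. SOX2 therefore stood near the middle of the distribution, and KLF4 between the median and the upper quartile.

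Among the other 7 factors read, GRHL3 had 3 CpG, TP63 had 6, TFAP2A had 9, OVOL2 had 13, GRHL2 had 15, KLF5 had 27 and OVOL1 had 28. Each window belongs to a single annotated start, so further starts of a gene, such as those of TP63, were not read. The windows of TFAP2A, KLF4, KLF5 and OVOL2 lie wholly inside the listed spans of their genes. Those of GRHL2, GRHL3 and OVOL1 overlap the spans in part. The counts describe sequence only, and methylation data were not used here. The letters ACGTG, the core of the hypoxia response element, were searched on both strands. Among the 9 windows only that of KLF4 held them, at a single place, the palindrome CACGTG, which reads the same on both strands. They are in 20.5% of all promoter windows. The grainyhead motif AACCGGTT occurred only in the OVOL1 window among the 9, and in 27 of all windows (0.142%). The AP-2 motif GCCNNNGGC was in the windows of SOX2, KLF4 and GRHL2, against 25.9% of all windows. GCGTG, another core of the hypoxia element found in 40.7% of windows, was in that of OVOL1, the SOX motif CATTGT (6.11%) in that of GRHL3 and the OVOL motif CCGTTA (2.75%) in those of OVOL1 and OVOL2. The short KLF and ETS letters CACCC and GGAAG, present in 58.9% and 67.1% of all windows, were in 3 and 5 of the 9. These matches are letters in a window and not sites of binding.

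Before the factors are described, the libraries and the cell line were checked. The depth recovered from the values lay between 22500000 and 24600000 reads per library. TET1 itself was listed at 0.129 FPKM in normoxia and 0.331 in hypoxia with the scrambled control, and 0.0493 and 0.122 with TET1-si, where FPKM is a fragment count divided by exon length and by library depth. It was 2.63-fold lower in TET1-si than in scrambled cells under normoxia (interval of the ratio 1.31 to 6.06) and 2.71-fold lower under hypoxia (1.72 to 4.40), on about 11 to 77 reads per library. All 8 squamous markers listed had a mean of at least 1 FPKM, and their summed level, mostly KRT5 and KRT17, was 4574 (N-scr) and 7359 (H-scr) with the scrambled control, and 1516 (N-si) and 3522 (H-si) with TET1-si. Of the markers of other tissues, 2 of 8 glandular, 1 of 7 fibroblast, 1 of 5 leukocyte, 2 of 4 neural, 2 of 4 melanocyte and 2 of the 3 endothelial genes in the table reached that mean. COL1A2, LUM, CD3E and TYR were at 0 in all 4 libraries. The summed endothelial level, mostly CDH5, was 8.93 in normoxia and 17.8 in hypoxia with the scrambled control, and 22.2 and 48.4 with TET1-si. The summed glandular level lay between 5.06 and 13.2, the fibroblast level between 5.30 and 37.2, the leukocyte level between 20.2 and 26.9, and the neural and melanocyte levels at 11.2 or less. The part of these genes in the values of the factors was not tested.

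**Figure D1:**
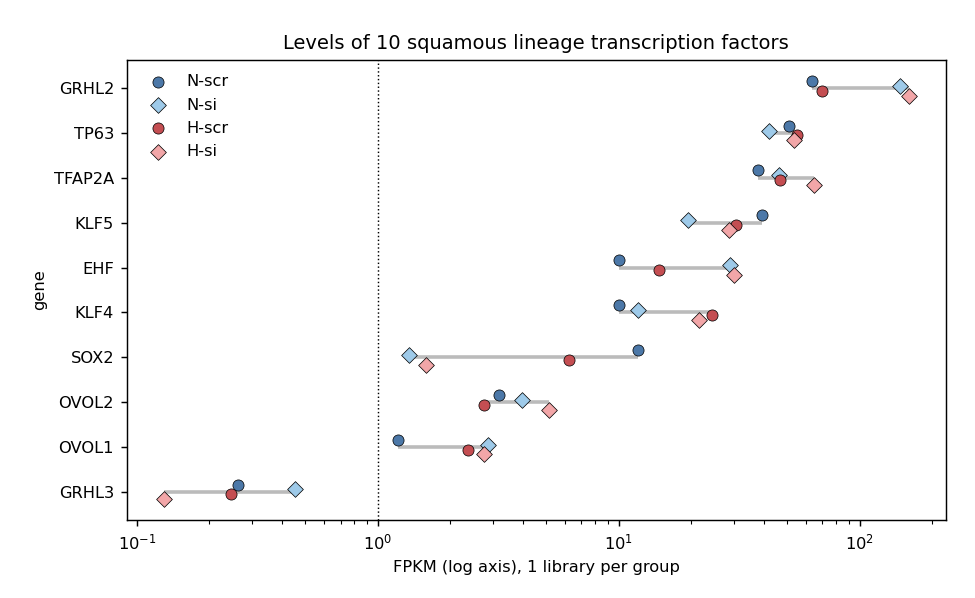
Levels of the 10 factors in FPKM on a log axis, with 1 point for each of the 4 libraries and a grey bar from the lowest to the highest. The dotted line marks 1 FPKM. GRHL2 is highest and GRHL3 lowest in every library, and SOX2 spans the widest range, from 1.35 to 12.0 FPKM.

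The factors ran from very high to barely detected. GRHL2 stood between the 88.9 and 96.8 percentile of 19234 protein-coding rows across the libraries, and GRHL3 between the 27.3 and 35.8 percentile. By mean FPKM over the 4 libraries they ran from GRHL2 (110.0) through TP63 (50.2), TFAP2A (48.9), KLF5 (29.5), EHF (20.9), KLF4 (17.0), SOX2 (5.28), OVOL2 (3.76) and OVOL1 (2.30) to GRHL3 (0.272). GRHL2 was first in all 4 libraries and GRHL3 last in all 4. Of the 9 pairs of neighbours in this order, only GRHL2 above TP63 and OVOL1 above GRHL3 had ranges that did not overlap. OVOL2 was above OVOL1 in 4 of 4 libraries although their ranges overlapped. The order of the other neighbours changed between libraries, and SOX2 moved most, from rank 5 in N-scr to rank 7 in H-scr and rank 9 in both TET1-si libraries.

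SOX2, a high-mobility-group factor of progenitor cells and a frequent amplification target in squamous cancers, showed the widest differences. It is a gene with a single exon at chr3:181429714-181432221 on the plus strand. SOX2 was at 12.0 (N-scr) and 6.20 (H-scr) FPKM with the scrambled control, and 1.35 (N-si) and 1.59 (H-si) FPKM with TET1-si, on about 630, 351, 76 and 82 reads. Both TET1-si libraries were low and both scrambled libraries were high. SOX2 was 8.85-fold lower in N-si than in N-scr, a change of -3.06 on the log2(FPKM + 0.1) scale, with a counting interval of the log2 ratio from -3.51 to -2.80. Under hypoxia it was 3.89-fold lower in H-si than in H-scr, a change of -1.90 (interval -2.33 to -1.62). Of the 15057 genes with a mean of at least 1 FPKM, 1.06% were lower by at least as much under normoxia and 2.65% under hypoxia. Both changes passed the 2-fold line used here to call a gene, an absolute change of at least 1, and 3.06% of these genes were called lower in TET1-si cells in both oxygen states.

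The hypoxia response of SOX2 differed between the control and the knockdown cells. In scrambled cells the SOX2 level was 1.93-fold lower in hypoxia, a change of -0.94 (interval -1.14 to -0.76), just short of 2-fold. This change passed 2-fold when the libraries were scaled by median of ratios or by upper quartile. In TET1-si cells the change was 0.22, with an interval of -0.24 to 0.70 that holds 0. The long noncoding gene SOX2-OT encloses SOX2 on the same strand, and since the counting rule for such reads is not given, reads of the pair could be shared. SOX2-OT was listed at 0.642 FPKM in normoxia and 0.991 in hypoxia with the scrambled control, and 0.0591 and 0.396 with TET1-si. It was thus under 1 FPKM in all 4 libraries, below SOX2 in each.

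The 3 protein-coding genes whose centred log2 profiles over the 4 libraries lay nearest to that of SOX2, of 9464 candidates, were RAI14, SLC39A6 and ZDHHC11. Their Euclidean distances were 0.265, 0.436 and 0.753. RAI14, which encodes an actin-associated ankyrin repeat protein, was at 32.7 (N-scr) and 17.3 (H-scr) FPKM with the scrambled control, and 4.50 (N-si) and 4.04 (H-si) FPKM with TET1-si. SLC39A6, a zinc transporter gene, was at 32.8, 21.8, 3.22 and 4.42 FPKM in the same order. ZDHHC11, a palmitoyltransferase gene with a near-identical copy that could share its reads, was at 19.0, 18.9, 4.08 and 4.54 FPKM. All 3 were high in both scrambled and low in both TET1-si libraries. With 4 points the likeness is a description only.

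TP63 lies on the same chromosome arm as SOX2, at chr3:189349205-189615068. TP63 was at 50.7 FPKM in normoxia and 54.8 in hypoxia with the scrambled control, and 42.1 and 53.4 with TET1-si, on 4877 to 6377 reads. Its highest value was only 1.30-fold its lowest, the narrowest range of the 10 factors, and N-si was the lowest library. The TET1-si change was -0.27 under normoxia (interval -0.33 to -0.21) and -0.04 under hypoxia (-0.09 to 0.01). The hypoxia change was 0.11 in scrambled cells (0.06 to 0.16) and 0.34 in TET1-si cells (0.29 to 0.40). The values of 0.11 and -0.04 turned sign under median-of-ratios and TPM scaling, respectively. TP63 has a long and an N-terminally shortened class of isoforms with different starts, and the values are for the gene as a whole, so these classes cannot be told apart here.

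TFAP2A, at chr6:10393419-10419892 on the minus strand, was listed at 37.9 (N-scr) and 46.5 (H-scr) FPKM with the scrambled control, and 46.4 (N-si) and 64.8 (H-si) FPKM with TET1-si. N-scr was lowest and H-si highest, with the other 2 libraries between them. Its change with TET1-si was 0.29 under normoxia (interval 0.22 to 0.37) and 0.48 under hypoxia (0.41 to 0.54). Its change with hypoxia was 0.29 in scrambled (0.22 to 0.37) and 0.48 in TET1-si cells (0.42 to 0.55). None of these reached 2-fold, and 40.9% of genes were higher by at least as much with TET1-si under normoxia. Its antisense gene TFAP2A-AS1 lay between 1.54 and 2.13 FPKM.

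**Figure D2:**
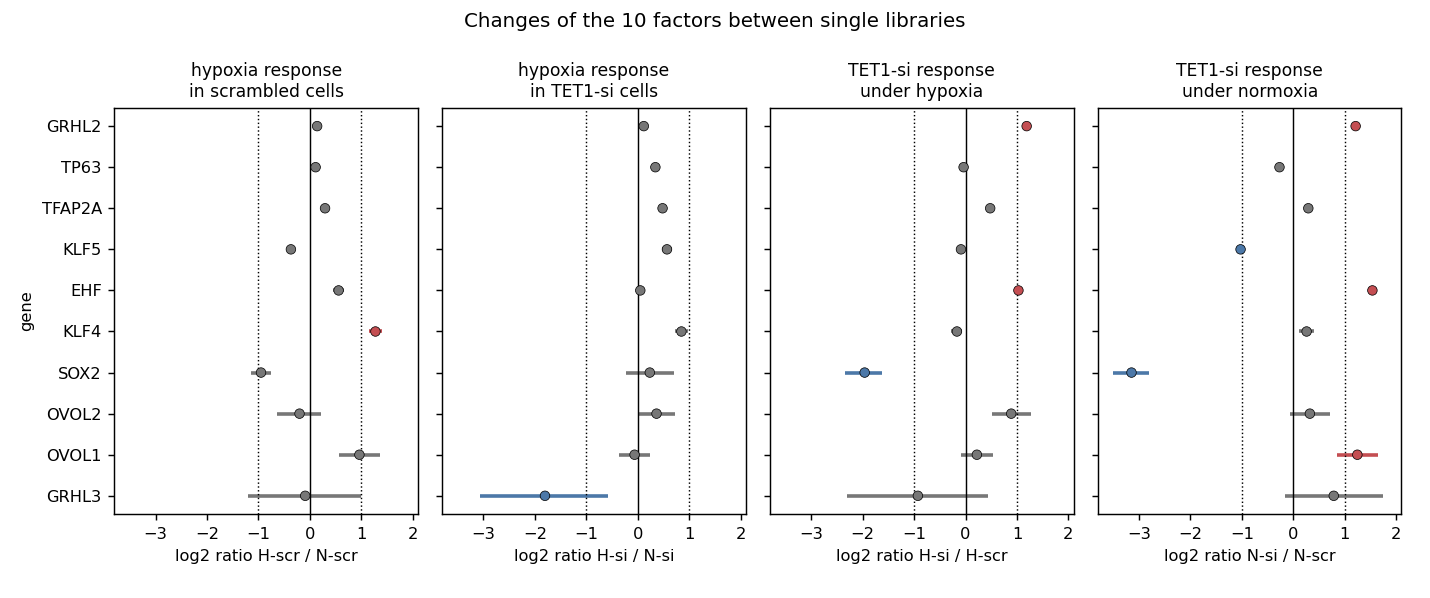
Log2 ratios of the 10 factors in the 4 pairwise comparisons of libraries, with bars for the 95% counting intervals and dotted lines at 2-fold. Points are coloured red or blue where the change on the log2(FPKM + 0.1) scale is at least 1 up or down, GRHL3 included, which is below the filter of 1 FPKM. SOX2 lies farthest to the left in both TET1-si panels, and GRHL2 and EHF lie to the right of the 2-fold line in both.

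GRHL2 and EHF were higher in both TET1-si libraries than in both scrambled libraries. GRHL2, an activator of cadherin and claudin genes, lies at chr8:102504660-102681954. GRHL2 was at 63.5 FPKM in normoxia and 70.0 in hypoxia with the scrambled control, and 147.0 and 159.6 with TET1-si, on 7303 to 18080 reads. The scrambled libraries were close to each other and well below the TET1-si libraries. It was 2.31-fold higher with TET1-si under normoxia, a change of 1.21 (interval 1.17 to 1.25), and 2.28-fold higher under hypoxia, a change of 1.19 (1.15 to 1.23). The hypoxia changes were 0.14 in scrambled and 0.12 in TET1-si cells, and their difference of -0.02 was the smallest of the 10 factors. GRHL2 overlaps an antisense long noncoding gene, ENSG00000254024, listed at 0.629 (N-scr) and 1.47 (H-scr) FPKM with the scrambled control, and 5.14 (N-si) and 14.4 (H-si) FPKM with TET1-si. Whether strand was used in counting is not given in the sources used here, so reads of this pair cannot be told apart with certainty.

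EHF, an ETS factor of differentiating epithelia at chr11:34642640-34682604, was at 9.98 FPKM in normoxia and 14.7 in hypoxia with the scrambled control, and 28.9 and 30.0 with TET1-si. The TET1-si libraries lay close together and N-scr was the lowest. EHF was 2.90-fold higher with TET1-si under normoxia, a change of 1.53 (interval 1.44 to 1.63). Under hypoxia it was 2.04-fold higher, a change of 1.02 (0.95 to 1.11), close to the 2-fold line. The change of EHF lay under that line at a pseudocount of 1 and under median-of-ratios and upper-quartile scaling. Its hypoxia change was 0.55 in scrambled cells (0.45 to 0.66) and 0.05 in TET1-si cells (-0.02 to 0.12). At least 2-fold higher levels with TET1-si in both oxygen states were found in 6.51% of the 15057 genes.

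KLF5 and KLF4, relatives with partly opposite roles, each differed in a different comparison. KLF5, at chr13:73629114-73651676, was at 39.4 (N-scr) and 30.5 (H-scr) FPKM with the scrambled control, and 19.4 (N-si) and 28.7 (H-si) FPKM with TET1-si. Its N-si library stood low and the other 3 libraries lay closer together. KLF5 was 2.04-fold lower with TET1-si under normoxia, a change of -1.02 (interval -1.12 to -0.94), whereas under hypoxia the change was -0.09 (-0.17 to -0.002). The former lay just short of 2-fold, at -0.99 and -0.97, with a pseudocount of 1 and under TPM scaling. With hypoxia it was lower in scrambled cells (-0.37, -0.45 to -0.29) and higher in TET1-si cells (0.57, 0.47 to 0.67). The difference of the 2 hypoxia responses was 0.93, and 5.57% of genes had a difference at least that large in this direction.

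KLF4, a factor of growth arrest and barrier formation at chr9:110247133-110252763 on the minus strand, was at 10.0 FPKM in normoxia and 24.3 in hypoxia with the scrambled control, and 12.0 and 21.6 with TET1-si. Both hypoxic libraries were above both normoxic ones. With the scrambled control KLF4 was 2.42-fold higher under hypoxia, a change of 1.27 (interval 1.14 to 1.41), and 1.80-fold higher in TET1-si cells, a change of 0.84 (0.72 to 0.98). It was the only factor above 2-fold for hypoxia in scrambled cells, where OVOL1 joined it at 1.03 under TPM scaling, and 8.91% of genes were higher by at least as much. The TET1-si changes were 0.26 under normoxia (0.10 to 0.41) and -0.17 under hypoxia (-0.27 to -0.06), and the former was 0.09 and 0.08 under median-of-ratios and upper-quartile scaling.

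The OVOL genes were low. OVOL1, a repressor that limits progenitor proliferation, lies at chr11:65554493-65564690. OVOL1 was at 1.21 (N-scr) and 2.36 (H-scr) FPKM with the scrambled control, and 2.87 (N-si) and 2.75 (H-si) FPKM with TET1-si, on about 77, 161, 195 and 172 reads. Only N-scr stood low. OVOL1 was 2.37-fold higher with TET1-si under normoxia, a change of 1.18 (interval of the log2 ratio 0.86 to 1.64), and 0.21 higher under hypoxia (-0.09 to 0.54). With a pseudocount of 1 the former was 0.81 and no longer called. It was 0.91 higher with hypoxia in scrambled cells (0.56 to 1.37), and the change in TET1-si cells was -0.06 (-0.36 to 0.25). An overlapping antisense noncoding gene, ENSG00000255404, was at 1.63 FPKM in normoxia and 3.52 in hypoxia with the scrambled control, and 3.87 and 3.37 with TET1-si, so N-scr was low there too. It was above OVOL1 in every library. Since the strand setting is not given, reads of this pair, and with them the called change of OVOL1, cannot be told apart with certainty. In OVOL1-AS1, a further antisense gene, N-scr was instead the highest library, at 0.624 FPKM, and the other 3 lay between 0.158 and 0.317.

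OVOL2, a repressor of mesenchymal genes at chr20:17937623-18039832 on the minus strand, was at 3.18 (N-scr) and 2.76 (H-scr) FPKM with the scrambled control, and 3.97 (N-si) and 5.11 (H-si) FPKM with TET1-si, on 93 to 158 reads. H-si was the highest library. Its TET1-si change was 0.31 under normoxia (-0.07 to 0.70) and 0.86 under hypoxia (0.51 to 1.28), and neither reached 2-fold. Its hypoxia change was -0.20 in scrambled cells (-0.63 to 0.21) and 0.36 in TET1-si cells (0.03 to 0.72). The annotated span of OVOL2 overlaps SNX5 on the same strand, which was listed far higher, at 186.2 FPKM in normoxia and 110.7 in hypoxia with the scrambled control, and 187.5 and 89.0 with TET1-si, and MGME1 on the opposite strand.

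GRHL3, which activates genes of the cornified envelope and lies at chr1:24645812-24690972, was the lowest of the 10. GRHL3 was at 0.262 (N-scr) and 0.246 (H-scr) FPKM with the scrambled control, and 0.452 (N-si) and 0.129 (H-si) FPKM with TET1-si, on about 16, 16, 29 and 8 reads. At this depth 3 of its 4 differences had intervals that held 0. In TET1-si cells it was 3.49-fold lower in hypoxia, a change of -1.27, with an interval of the log2 ratio from -3.08 to -0.57. The gene fell below the filter of 1 FPKM and is left out of the counts of called factors, and it overlaps STPG1 on the opposite strand, at 2.21 to 3.18 FPKM.

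**Figure D3:**
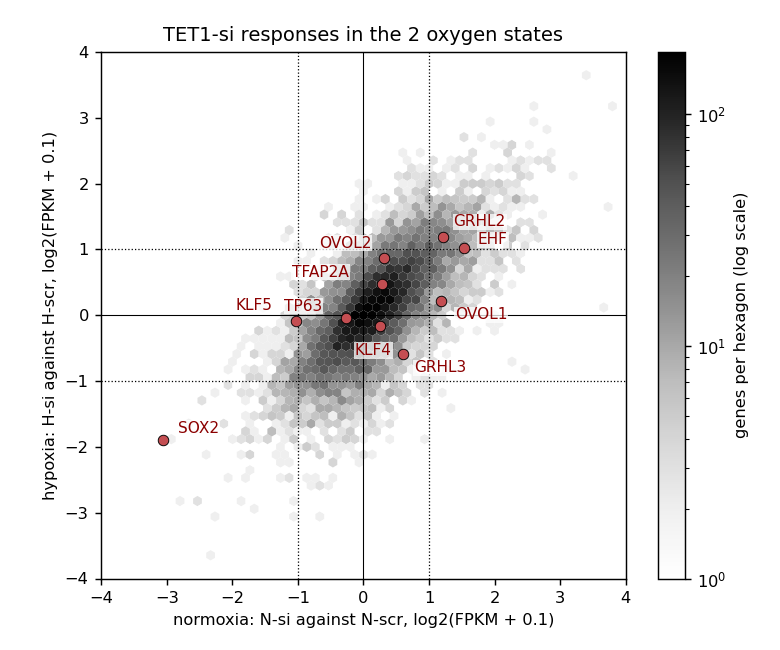
Change with TET1-si under normoxia (horizontal) against that under hypoxia (vertical), both as differences of log2(FPKM + 0.1), for the 10 factors (red points) and for all genes with a mean of at least 1 FPKM (grey hexagons, darker for more genes on a log scale). The axes end at 4 and leave out 419 of 15057 genes. SOX2 lies far in the lower left, GRHL2 and EHF lie past 2-fold in the upper right, and KLF5 and OVOL1 lie at the 2-fold line or past it on the normoxia axis only.

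Counted together, 5 of the 9 factors above the filter were called with TET1-si under normoxia, 3 with TET1-si under hypoxia, and 1 and 0 with hypoxia in scrambled and TET1-si cells. Over all 15057 genes the shares called in either direction were 17.7%, 20.4%, 17.4% and 21.2% in the same order. With TET1-si under normoxia 3 of 9 were called higher (GRHL2, OVOL1 and EHF), beside 12.1% of all 15057 genes, and 2 of 9 lower (SOX2 and KLF5), beside 5.56%. With TET1-si under hypoxia 2 of 9 were called higher (GRHL2 and EHF), beside 12.0% of genes, and 1 of 9 lower (SOX2), beside 8.35%. With hypoxia in scrambled cells 1 of 9 was called higher (KLF4), beside 12.9% of genes, and 0 lower, beside 4.53%. With hypoxia in TET1-si cells 0 of 9 were called in either direction, beside 12.5% of genes higher and 8.66% lower. The median change of the 9 was 0.29 with TET1-si under normoxia and 0.21 under hypoxia, against 0.15 and 0.10 over all genes. For hypoxia it was 0.14 in scrambled and 0.34 in TET1-si cells, against 0.05 and 0.03.  These comparisons share libraries and are not independent of each other.

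The study selected its TET1-dependent genes by 3 inequalities, asking for a level in H-scr over 2 times that in H-si, for a higher level in H-scr than in N-scr, and for a level in N-scr no lower than in N-si. None of the 10 factors met all 3, which 3.84% of the 15057 genes did, and none met the mirrored set, which 3.23% did. The first inequality held for SOX2 alone among the 10, and for 8.66% of genes. SOX2 missed the set because its level was not higher in H-scr than in N-scr. The second held for 6 factors (TP63, KLF4, GRHL2, OVOL1, TFAP2A and EHF) and for 52.9% of genes. The third held for TP63, SOX2 and KLF5, and for 39.7% of genes.

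To see whether a factor moved with its stretch of chromosome, each was set beside the 10 nearest expressed protein-coding genes on each side, 20 in all, which was decided with their values already known. These stretches differed in length, from 0.407 Mb around OVOL1 to 25.3 Mb around KLF5. The neighbours of SOX2 had a median TET1-si change of 0.63 under normoxia and 0.41 under hypoxia. None was as low as SOX2 in either state, beside 1.06% and 2.65% of all genes. The lowest values of these neighbours were -0.64 and -1.22. The neighbours of EHF had medians of -0.23 and -0.17, with 0 of 20 as high as EHF under normoxia and 1 of 20 under hypoxia. The shares of all genes as high were 5.53% and 11.6%. For GRHL2 the medians were 0.11 and -0.10, and 1 of 20 neighbours was as high in each state, beside 8.74% and 8.77% of all genes. For OVOL1 under normoxia the median was -0.08 and no neighbour was as high, beside 9.19% of all genes. TP63, at -0.27 under normoxia, was below all its neighbours, whose median was 0.36 and lowest value 0.03, while 23.0% of all genes were as low. Under hypoxia 4 of 20 were as low as TP63, beside 40.6% of all genes. Around KLF5 the neighbours were low, with medians of -0.57 under normoxia and -0.68 under hypoxia, where KLF5 itself was at -1.02 and -0.09. There 2 of 20 neighbours were as low as KLF5 under normoxia and 17 of 20 under hypoxia, beside 5.31% and 37.5% of all genes. With 20 neighbours, a count near its share of all genes does not set a stretch apart from other genes.

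**Figure D4:**
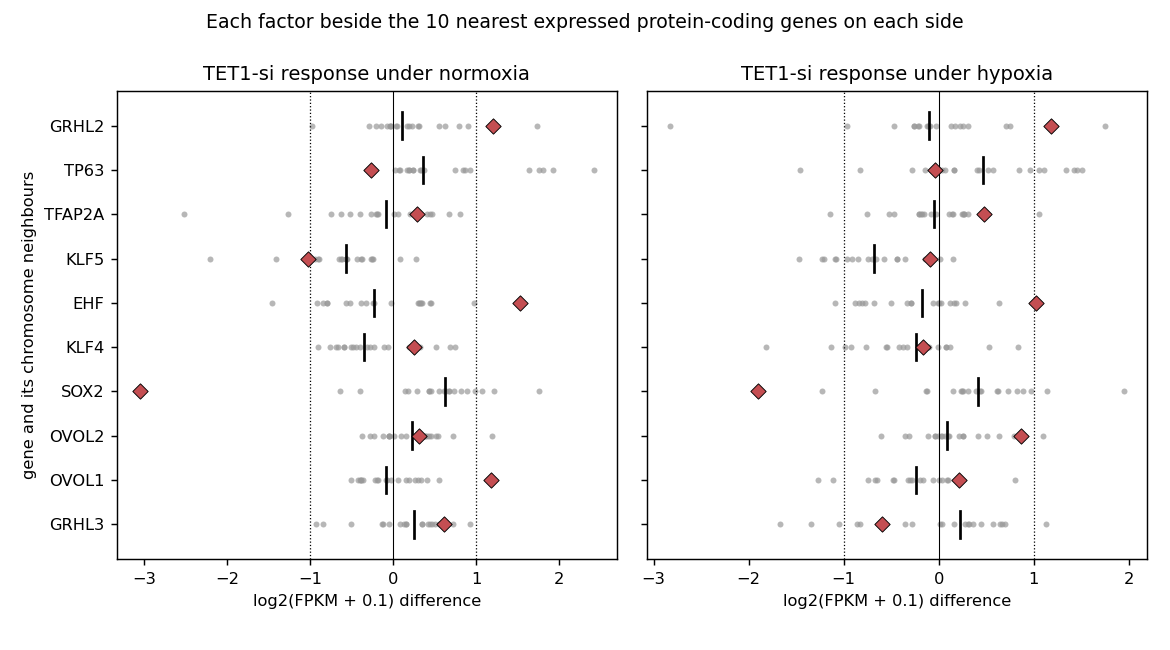
TET1-si changes of each factor (red diamonds) and of the 10 nearest expressed protein-coding genes on each side of it (grey points, with a black bar at their median), under normoxia on the left and hypoxia on the right, as differences of log2(FPKM + 0.1). SOX2 lies below all its neighbours in both panels and TP63 in the normoxia panel only, while KLF5 lies within the range of neighbours whose medians are -0.57 and -0.68.

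The relatives of these factors showed no common direction as a whole, though those called lower were all KLF genes. Of 26 other genes of the TP63, SOX, KLF, GRHL, OVOL, TFAP2 and ETS families, 17 had a mean of at least 1 FPKM. Over all genes above 1 FPKM, 12.0% were called higher and 8.35% lower with TET1-si under hypoxia and 12.1% and 5.56% under normoxia, with medians of 0.10 and 0.15. With TET1-si under hypoxia 2 of the 17 were called higher and 4 lower, with a median of 0.03, and under normoxia 1 and 2, with a median of 0.06. Those called lower were KLF6, KLF7, KLF11 and KLF13 under hypoxia, and KLF7 and KLF13 under normoxia. Of the other KLF genes above the filter, KLF10 was at -0.96 under hypoxia, KLF3 at 0.25 and KLF16 at 0.03. The farthest under hypoxia were TP73, a homologue of TP63, at 2.21 and SOX13 at 1.54, and KLF13 at -2.16 and KLF6 at -1.91. TP73 went from 1.26 FPKM in H-scr to 6.16 in H-si, whereas KLF13 went from 5.40 to 1.13.

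Among 25 other regulators of epidermal and squamous cells, 19 passed the filter, with 5 called higher and 3 lower under hypoxia and a median of -0.002. Under normoxia 5 were called higher and 2 lower, with a median of 0.26. Beside these counts, 12.0% of all genes were called higher and 8.35% lower with TET1-si under hypoxia, and 12.1% and 5.56% under normoxia. ZNF750, a TP63-induced factor that acts upstream of KLF4 in differentiation, was at 0.301 FPKM in normoxia and 0.478 in hypoxia with the scrambled control, and 1.66 and 7.03 with TET1-si. Its change under hypoxia was 3.62, the highest of the list, and HES2 followed at 3.40. CEBPB (-1.38) and FOSL1 (-1.27) were the lowest.

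Of 28 target genes of TP63, 27 were in the table under the symbol used and 26 passed the filter. With TET1-si 2 were called higher and 6 lower under hypoxia, with a median of -0.07, and 1 higher and 6 lower under normoxia, with a median of -0.40. TP63 itself differed by -0.04 and -0.27 in the same comparisons. KRT14, a keratin of basal cells, was at 42.1 (N-scr) and 99.9 (H-scr) FPKM with the scrambled control, and 0.487 (N-si) and 1.41 (H-si) FPKM with TET1-si, a change of -6.05 under hypoxia. KRT15, another basal keratin, differed by -1.68 there. The highest of the targets were ZNF750, at 3.62 and described above, and FGFR2, at 1.73. Keratin genes have near-identical relatives, among which reads can be split unevenly. Several of these targets, KRT14 among them, are also squamous markers, whose summed level was lower in both TET1-si libraries than in the scrambled library of the same oxygen state. That sum was mostly KRT5 and KRT17. Of the 8 markers, 4 were called lower in each state, whereas PKP1 (0.95 under hypoxia, 0.76 under normoxia) and TRIM29 (0.82 and 0.73) were higher. For hypoxia 5 of the 26 were called higher and 0 lower in scrambled cells (median 0.50), and 12 higher and 0 lower in TET1-si cells (median 0.94), beside 12.9% and 12.5% of all genes called higher.

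Of 17 epithelial targets of GRHL and OVOL factors 16 passed the filter, with medians of 0.60 under hypoxia and 0.40 under normoxia for TET1-si. Under hypoxia 1 was called higher and 2 lower, beside 12.0% and 8.35% of all genes. Under normoxia 1 was called higher and 1 lower, beside 12.1% and 5.56%. ESRP2, a splicing factor of epithelial cells, was at 59.0 FPKM in H-scr and 133.8 in H-si, a change of 1.18. MAL2, an apical transport gene, followed at 0.98, and TGM1 (-1.55) and PRSS8 (-1.19) were the lowest. Of 7 genes that these factors repress only CDH2, TWIST1 and SNAI2 passed the filter. CDH2 differed with TET1-si by 0.80 under hypoxia and 1.08 under normoxia, TWIST1 by -1.26 and -1.80 and SNAI2 by -0.13 and -0.61.

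Terminal differentiation genes, targets of KLF4, GRHL3 and EHF, were spread widely. Of 26, 13 passed the filter, and LOR, SPRR3 and TGM3 were at 0 in all libraries. With TET1-si 4 were called higher and 5 lower under hypoxia (median 0.21), beside 12.0% and 8.35% of all genes. Under normoxia 4 were called higher and 4 lower (median 0.39), beside 12.1% and 5.56%. CNFN, a protein of the cornified envelope, was 3.12 higher under hypoxia and KLK5, a protease of shedding skin, 2.35 higher. KRT13 and KRT4, keratins of stratified mucosa, differed by -5.08 and -3.79. The lists were read as counts, and no set test was run on them.

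**Figure D5:**
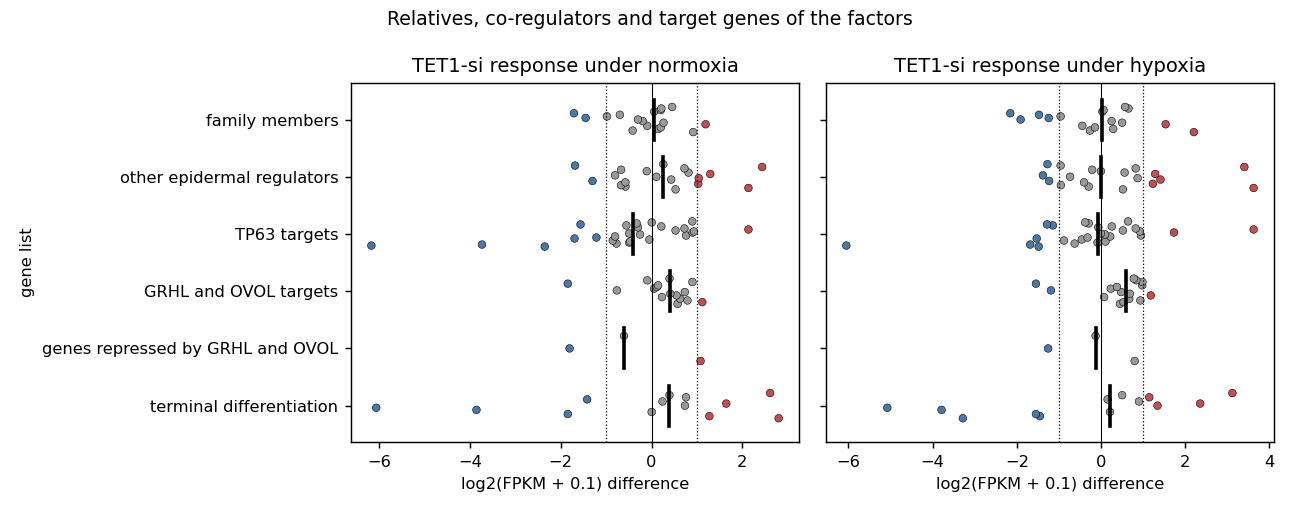
TET1-si changes of the genes in 6 lists (relatives, other regulators, target genes and terminal differentiation genes) that had a mean of at least 1 FPKM, under normoxia on the left and hypoxia on the right, as differences of log2(FPKM + 0.1). Points past 2-fold are red (higher) or blue (lower), and black bars mark medians, which lie between -0.61 and 0.60.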

How the data were processed

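RNA was sequenced from 4 libraries of FaDu cells (N-scr, H-scr, N-si and H-si), 1 per group as the labels give them. The libraries were made with an mRNA TruSeq kit and read as 100 bp reads. The labels call these reads single end and the methods of the study call them paired end. The authors deposited gene-level FPKM values, made with TopHat and Cufflinks on hg19 with Ensembl annotations. Tool versions, the annotation release and the strand setting are not given in the sources used here.

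Start positions in the table count from 0, so 1 was added. Of the rows, 232 with a shared gene ID were left out, none of them a member. Changes are differences of log2(FPKM + 0.1), which understate the changes of low genes. A gene was called at an absolute change of at least 1 (2-fold) among 15057 genes with a mean of at least 1 FPKM over the 4 libraries. FPKM are not counts, so no count test was run. The low values of 18313 genes with 1 exon were searched for the depth that made them whole numbers of reads. Between 97.1% and 97.8% of the values under 8 reads came out whole within 0.05, at 22900000 reads for N-scr, 24600000 for H-scr, 24500000 for N-si and 22500000 for H-si. Approximate reads per gene are FPKM times depth times the canonical transcript length (GENCODE v44lift37, matching 86.3% of rows) less 212 bp, and the exact Clopper-Pearson intervals of ratios rest on them. PCR duplicates are not removed from such reads.

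Promoter windows of 250 bases came from the GRCh37 genome at GENCODE starts, for 9 members, and 5 of the 6 that matched a symbol in the RefSeq promoter table of GRCh38 were identical to it. All 10 members are named. From each gene list, up to 4 genes are named, those farthest in either direction with TET1-si under hypoxia, and likeness was ranked for the widest-ranging member. Further KLF genes of the family list and the markers PKP1 and TRIM29 are named to show which way they differed. The promoter window of 1 member and 1 gene of the family list are not reported here. The members and lists were chosen with earlier results of these data known. The alternatives tried were pseudocounts of 0.01 and 1, no filter, a filter of 5 FPKM, protein-coding genes only, and median-of-ratios, upper-quartile and TPM scaling. The scripts were tested on simulated data, with Python 3.11.15, pandas 2.3.3, numpy 2.4.6 and scipy 1.17.1.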

Additional observations from a re-analysis of the deposited data

Results flagged for a closer look

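For 6 factors the values of a response had opposite signs in the 2 states compared. With 1 library per group none of these differences was tested, and for 4 of the 6 factors the counting interval of at least 1 of the paired values held 0. Opposite signs are common in this table, at 22.1% of genes for the hypoxia responses in scrambled and TET1-si cells and 23.7% for the TET1-si responses in both oxygen states.

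For hypoxia, SOX2 differed by -0.94 in scrambled and 0.22 in TET1-si cells, a difference of 1.16 (TET1-si less scrambled), and 3.71% of genes differed at least as far in that direction. The interval in TET1-si cells, -0.24 to 0.70, held 0. KLF5 differed by -0.37 and 0.57, a difference of 0.93, and both of its counting intervals excluded 0. OVOL1 differed by 0.91 and -0.06, a difference of -0.97 that 8.30% of genes reached, and under TPM scaling the second value was 0.07, of the same sign as the first. Its interval in TET1-si cells, -0.36 to 0.25, held 0. OVOL2 differed by -0.20 and 0.36, a difference of 0.55, with an interval that held 0 in scrambled cells.

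For TET1-si, KLF4 differed by 0.26 under normoxia and -0.17 under hypoxia, a difference of -0.42 (hypoxia less normoxia), and both intervals excluded 0. Its normoxia value was 0.09 and 0.08 under median-of-ratios and upper-quartile scaling. GRHL3 differed by 0.61 and -0.59, a difference of -1.20, on 8 to 29 reads per library and with intervals that both held 0.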

How the results depend on the processing

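No paired analysis was possible because each group had 1 library, and for the same reason no library could be left out. Of the 8 alternatives, those on filters and on protein-coding genes leave the change of a gene as it is. A pseudocount cannot turn its sign. Under the other scalings 6 values near 0 changed sign. Called values kept their sign, but shifts of this size could not have turned them. GRHL2 stayed above 2-fold with TET1-si in both oxygen states (1.04 to 1.25 under hypoxia, 1.04 to 1.26 under normoxia), and SOX2 stayed below (-2.03 to -1.47 and -3.22 to -2.46). The count of factors called higher with TET1-si under hypoxia went from 2 to 1 at a pseudocount of 1 and under median-of-ratios and upper-quartile scaling, where EHF was at 0.98, 0.88 and 0.91. The count called lower with TET1-si under normoxia went from 2 to 1 at a pseudocount of 1 and under TPM scaling, where KLF5 was at -0.99 and -0.97. At a pseudocount of 1, OVOL1 was at 0.81 in that comparison. For hypoxia in scrambled cells, 2 in place of 1 were called higher under TPM scaling (OVOL1 at 1.03), and 1 in place of 0 lower under median-of-ratios and upper-quartile scaling (SOX2 at -1.05 under the former). With no filter, GRHL3 made 1 in place of 0 called lower for hypoxia in TET1-si cells.

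Scaling also moved all genes together. Median-of-ratios scaling moved the median of all genes with TET1-si from 0.15 to -0.004 in normoxia and 0.10 to -0.03 in hypoxia, and TPM scaling moved it for hypoxia from 0.05 to 0.16 in scrambled cells. The share of called genes that were higher with TET1-si went from 68.6% to 56.0% in normoxia with median-of-ratios and 55.6% with upper-quartile scaling. In hypoxia it went from 59.0% to 47.0% with median-of-ratios scaling. Over all genes, the counts called higher moved with the filter and the pseudocount. For hypoxia in scrambled cells they were 1937 as reported, 1237 at a pseudocount of 1, 905 above 5 FPKM and 4517 with no filter, and for TET1-si in normoxia 1828, 1164, 892 and 3699. For hypoxia in TET1-si cells 1883 became 823 above 5 FPKM and 4803 with no filter, and for TET1-si in hypoxia 1807 became 881 and 4226. The counts called lower with no filter were 1654 in place of 682, 2333 in place of 1304, 3083 in place of 1258 and 2299 in place of 837, in the order scrambled and TET1-si cells for hypoxia, then hypoxia and normoxia for TET1-si. Above 5 FPKM the last 2 were 789 and 435. Depth limited GRHL3, and to a lesser degree OVOL1, OVOL2 and the TET1-si libraries of SOX2.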
